A study of Mus musculus with 27 samples.

Results

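Gene expression in the mouse tibialis anterior muscle was compared between day 7 and day 3 after volumetric muscle loss (VML), an injury in which a piece of muscle too large to be replaced is cut away. The comparison used the 5 samples labelled day 3 and the 6 labelled day 7, which are 11 of the 27 in the series, and all 14630 genes with an FPKM (a count of fragments scaled to the length of the gene and the size of the library) of at least 0.5 in at least 5 of the 27 samples, out of 54532 genes in the table. The samples of both days came from C57BL/6 male mice of 8 weeks in which 40% of the tibialis anterior had been excised. Neither day carried an added treatment, and the sources used here differ on whether one leg or both were injured. Uninjured muscle (n = 5) and the later days 14 (n = 6) and 21 (n = 5) are cited as reference levels. Their samples also entered the FPKM filter and the limma fit, and so the estimate of spread behind each p-value. The labels do not say that replicates were separate animals, so the p-values measure the spread between these samples.

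Muscle that has been injured first fills with neutrophils and monocytes, which mature into macrophages that clear dead fibres. Satellite cells, the stem cells of muscle, divide, switch on the myogenic factors, fuse and build new fibres that carry embryonic and neonatal forms of the contractile proteins before the adult forms take over. Fibroblasts and fibro-adipogenic progenitors, which can turn into fat cells, lay down matrix around the fibres. Day 3 and day 7 are usually placed in the inflammatory and the early fibre-forming phases of this course.

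Several libraries stood apart from their day. A principal component analysis of the 11 libraries put 46.2% of the variance on its first axis, on which day 3 replicates 1 to 4 scored 11.1 to 47.8 and day 3 replicate 5 scored -9.36. On the same axis day 7 replicate 5 scored 44.6, day 7 replicates 1, 2 and 4 scored -9.4, -21.6 and 2.24, and day 7 replicates 3 and 6 scored -53.5 and -63.5. Measured against the mean profile of each group, day 3 replicate 5 lay nearest to day 7, day 7 replicate 5 nearest to day 3, day 7 replicate 3 nearest to uninjured muscle and day 7 replicate 6 nearest to day 21. The median within-group standard deviation over genes was 0.233 log2 units at day 3 and 0.334 at day 7, and 0.191 and 0.299 without the replicates numbered 5. Reads recovered per library ranged from 14376395 to 19819115 at day 3 and from 15382081 to 24436763 at day 7, and the mitochondrial share of reads from 8.50% to 16.8% and from 7.94% to 28.4%, the last in day 7 replicate 6. All 11 libraries stayed in the groups their labels give. Counts over gene lists are given for these labels and again without both replicates 5, and single genes in part only without them. Leaving out 2 libraries that lie with the other day enlarges the difference between days by construction. The p-values and calls of that setting therefore describe the remaining libraries and are no support for a change in the groups as labelled.

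**Figure D1:**
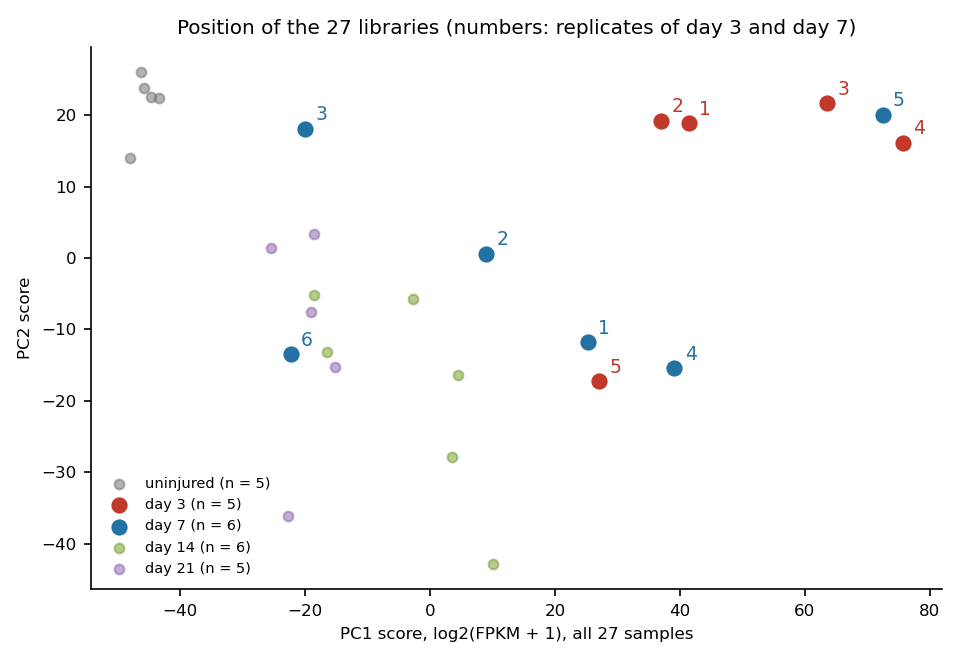
Scores of the 27 libraries on the first (x axis) and second (y axis) principal components of log2(FPKM + 1), one point per library, coloured by group, with replicate numbers beside the day 3 and day 7 points. Day 3 replicate 5 sits among day 7 replicates 1, 2 and 4, day 7 replicate 5 sits among day 3 replicates 1 to 4, and day 7 replicates 3 and 6 sit on the side of the uninjured and day 21 libraries.

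With all 11 samples as labelled, limma called 7 of the 14630 genes at a Benjamini-Hochberg adjusted p under 0.05 (0.0478%), and all 7 fell from day 3 to day 7. No gene was called higher, although 640 genes were higher and 1661 lower at an unadjusted p under 0.05 (4.37% and 11.4% of the genes tested). A log2 difference in what follows is the day 7 mean minus the day 3 mean of log2(FPKM + 1), which understates the change of weakly expressed genes. Its median over all genes was -0.0067, and 328 genes differed by more than 2-fold on this scale (2.24%), 49 of them higher (0.335%) and 279 lower (1.91%). Without both replicates 5, 2265 genes were called (15.5%), of which 517 rose (3.53%) and 1748 fell (11.9%), and the 7 genes were among them. Without day 3 replicate 5 alone 730 genes were called, and without day 7 replicate 5 alone 1792. The number of calls therefore depended on which libraries entered, and the counts of list members below are to be read against these shares. In whole muscle, fewer cells of a type cannot be told apart from less RNA of its genes per cell.

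Of the 7 genes, 2 had no overlap between the 5 day 3 and the 6 day 7 samples, and every other gene named below, apart from the first tested member of each gene list, was chosen after its values were seen. Gm37565 (ENSMUSG00000104045, chr2:12697417-12706853, + strand, GRCm38), a long intergenic noncoding RNA that overlaps no other annotated gene, had FPKM of 2.93, 3.24, 1.85, 1.79 and 1.91 in day 3 replicates 1 to 5. At day 7 its values ran from 0 to 0.36 (median 0.0292), and it was at 0 in every uninjured sample. It fell by 1.58 on the log2 scale (0.13 SE, limma adjusted p 5.75e-08) and was called under all 28 alternatives tried. Its exact permutation p of 0.00216 is the smallest that 462 divisions of 5 and 6 samples allow. Any gene without overlap has this p-value, and Gm37565 was named partly for its lack of overlap, so the value adds no support. Its FPKM values rest on at most 30 reads in any of the 11 libraries. Both replicates 5 followed their labels here, with 1.91 in day 3 replicate 5 and 0.0585 in day 7 replicate 5.

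Sprr1a (ENSMUSG00000050359, chr3:92483952-92485895, - strand), a small proline-rich protein of the cornified envelope that injured neurons also switch on, had FPKM of 5.29, 10.5, 4.84, 5.39 and 1.87 at day 3 and 0 to 1.14 at day 7 (median 0.386). The lowest day 3 value and the highest day 7 value both belonged to the replicates numbered 5, and the groups still did not overlap. Sprr1a fell by 2.14 (0.32 SE, limma adjusted p 0.00344), and by 2.54 without both replicates 5, and was called under 24 of the 28 alternatives. Its libraries held 0 to 139 reads. It was at 0 in uninjured muscle. The 300 bases of its promoter window (GRCm38.p6, from RefSeq, around the gene's start, chr3:92485832-92486131, - strand) are shown because Sprr1a was the coding gene with the clearest separation, with the AP-1 motif TGAGTCA in capitals, searched on both strands:

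Sprr1a: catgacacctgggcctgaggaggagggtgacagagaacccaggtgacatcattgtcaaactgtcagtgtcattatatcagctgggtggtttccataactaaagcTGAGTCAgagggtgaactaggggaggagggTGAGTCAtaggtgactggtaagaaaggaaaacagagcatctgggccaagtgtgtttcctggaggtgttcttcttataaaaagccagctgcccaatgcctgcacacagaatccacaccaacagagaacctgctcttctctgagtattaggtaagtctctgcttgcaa

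The window held 2 copies of TGAGTCA, and 5.2% of the 32851 promoter windows in the RefSeq table held at least 1 (3.9% of those of tested genes). AP-1 is the transcription factor family of Fos and Jun, and a match of letters is only a description.

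The other 5 called genes overlapped between days because of the replicates numbered 5. Smim6, a small transmembrane protein, had FPKM of 5.39, 4.88, 4.77, 5.07 and 0.769 at day 3 and 0.228 to 2.14 at day 7 (median 0.53), and fell by 1.51 (limma adjusted p 0.0141). Msln, mesothelin, a surface protein of mesothelial cells, had 9.38, 6.13, 8.5, 11.5 and 1.6 at day 3 and 0.167 to 4.49 at day 7 (median 1.29), and fell by 1.68 (limma adjusted p 0.0444). Gm19817 (0 to 0.619 at day 7, 0.441 to 1.84 at day 3) fell by 0.85, and lies inside Dclk1 on the same strand, so that its reads cannot be told apart from those of Dclk1 transcripts. Smim6 overlaps Recql5 and Oip5 overlaps Nusap1 on the opposite strand, and the libraries were non-directional, so the reads of the 2 genes of each pair cannot be told apart.

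The remaining pair belong to cell division. Cdkn3, a phosphatase that acts on cyclin-dependent kinases, had FPKM of 2.24, 1.62, 2.27, 3.59 and 1.07 in the day 3 samples and 0 to 2.01 at day 7 (median 0.218), and fell by 1.17 (0.2 SE, limma adjusted p 0.0141). Oip5, which helps to load the centromere histone, had 0.755, 1.17, 1.04, 1.9 and 0.952 at day 3 and 0 to 0.872 at day 7 (median 0.227), and fell by 0.77 (0.14 SE, limma adjusted p 0.0141). For both, day 7 replicate 5 held the highest day 7 value and reached the day 3 range. Smim6, Cdkn3 and Msln were called under 17, 16 and 9 of the 28 alternatives, and Oip5 and Gm19817 under 17 and 16 of the 27 that tested them.

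**Figure D2:**
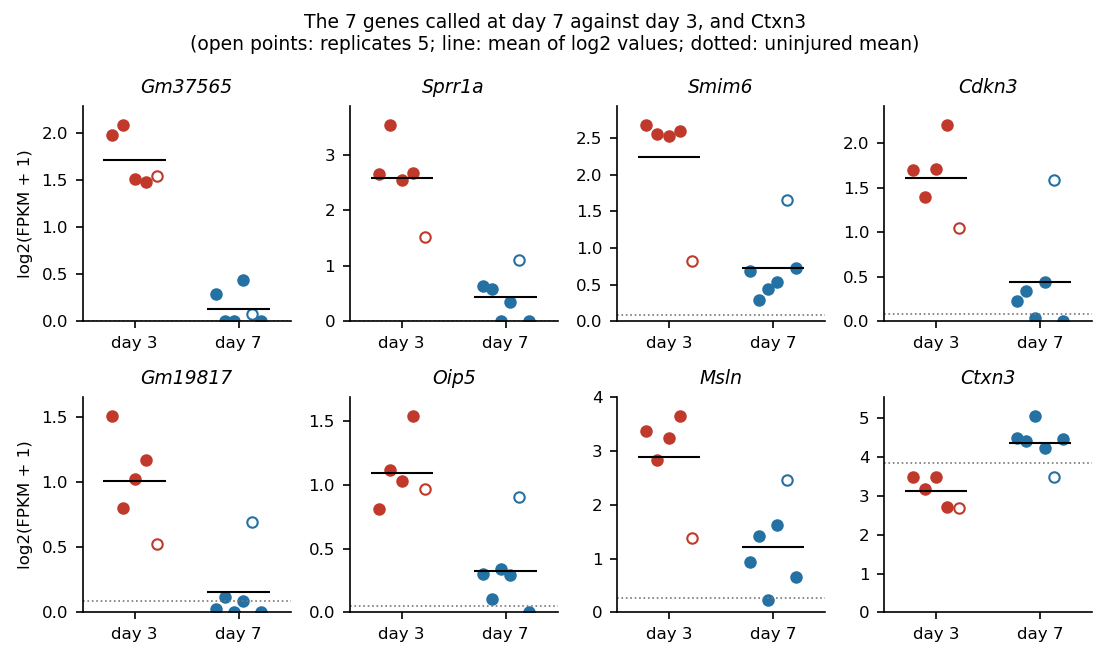
Levels of the 7 called genes and of Ctxn3 as log2(FPKM + 1) (y axis) in each day 3 and day 7 sample (x axis), with replicates 5 as open points, the mean of the log2 values as a line and the uninjured mean as a dotted line. Gm37565 and Sprr1a do not overlap between days, the other 5 overlap through an open point, and Ctxn3 is higher at day 7.

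Among 50 genes whose 5 and 6 samples did not overlap (0.342% of the genes tested), 31 were higher at day 7 (0.212%) and 19 lower (0.13%). With samples in random order, 1 of the 462 divisions separates the groups fully in each direction, a share of 0.00216. Neither observed share exceeds that, so the lack of overlap alone does not mark a gene as changed. Ctxn3, a small brain and kidney membrane protein, had FPKM of 10.3, 8.08, 10.2, 5.61 and 5.48 at day 3 and 10.3 to 32.3 at day 7 (median 20.7), a log2 difference of 1.24 with an adjusted p of 0.0682 in limma. Gdf11, a TGF-beta family ligand close to myostatin, had 1.33, 1.46, 1.74, 2.0 and 2.53 at day 3 and 2.57 to 5.41 at day 7 (log2 difference 0.74, limma adjusted p 0.0682). All 6 day 7 values lay above all 5 day 3 values in both genes, in Ctxn3 by less than the rounding of the closest pair. Car3, the carbonic anhydrase of muscle and fat, had 409, 374, 371, 249 and 338 at day 3 and 424 to 1537 at day 7 (log2 difference 1.2, limma adjusted p 0.0731). Mss51, a mitochondrial protein of fast fibres, had 4.83, 4.72, 9.61, 5.43 and 8.98 at day 3 and 11.2 to 242 at day 7 (median 18). Its values of 242 and 189.6 in day 7 replicates 3 and 6 stood far above the 11.2 to 18.3 of the other 4, and its log2 difference of 2.34 was 1.25 without those 2 libraries and both replicates 5. Mt3, a metal-binding metallothionein, was lower, with 37.8, 43.4, 35.6, 26.7 and 23.7 at day 3 and 2.09 to 21.5 at day 7 (log2 difference -1.46, limma adjusted p 0.0867). Without both replicates 5 the first 4 rose and Mt3 fell (limma adjusted p 0.00168, 0.00223, 0.00336, 0.00298 and 0.0087).

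The rest of the comparison was described through 38 lists of marker and pathway genes, which held 596 distinct genes, of which 530 passed the FPKM minimum and were tested. With all 11 samples as labelled, limma called none of the 530, and neither did voom on reads recovered from the FPKM values. At an unadjusted p under 0.05, 28 were higher and 133 lower at day 7. Without both replicates 5, 36 rose and 132 fell.

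Macrophage markers had the lowest median log2 difference of the 38 lists, -1.71, against -0.0067 over all genes, and all 13 were lower on average. None was called with all 11 samples, 11 were lower at an unadjusted p under 0.05, and all 13 fell without both replicates 5, with a median of -2.46. Adgre1, which encodes the macrophage surface protein F4/80, had FPKM of 12.5, 10.7, 20.0, 19.7 and 3.61 at day 3 and 0.52 to 21.5 at day 7 (median 2.72; log2 difference -1.61, limma adjusted p 0.082). Cd68, a lysosomal protein of phagocytes, had 141, 94.4, 200.3, 251 and 31.7 at day 3 and 3.19 to 226 at day 7 (median 20.2). In both genes day 7 replicate 5 reached the upper day 3 values and day 3 replicate 5 fell inside the day 7 range. Without those 2 libraries Cd68 ran from 94.4 to 251 at day 3 and from 3.19 to 47.1 at day 7, and fell by 3.35 (limma adjusted p 5.94e-06), against an uninjured mean of 1.61. Lyz2, the lysozyme of myeloid cells, fell by 3.19 without both replicates 5, and C1qa, a complement subunit made by macrophages, by 2.54. Ctss, a lysosomal protease outside the list, fell by 3.57.

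Monocyte and neutrophil markers had smaller median differences, -0.78 and -0.73. Of 7 monocyte markers 4 were lower and 1 higher at an unadjusted p under 0.05, with none called with all 11 samples, and 4 fell without both replicates 5. Ly6c2, the surface antigen of inflammatory monocytes, had FPKM of 2.17, 0.625, 4.0, 4.2 and 2.42 at day 3 and 0.0293 to 5.54 at day 7 (median 0.125). Ccr2, the chemokine receptor that draws monocytes from blood, had 4.42, 2.64, 6.22, 7.62 and 2.91 at day 3 and 1.2 to 9.56 at day 7 (median 1.51). Day 7 replicate 5 was above every day 3 sample for both. Chil3, a chitinase-like protein of activated myeloid cells, had 10.9, 7.83, 23.5, 24.3 and 0.576 at day 3 and a day 7 median of 0.114, and replicate 5 at 22.8. It fell by 3.83 without both replicates 5 (limma adjusted p 3.53e-11). Hp, haptoglobin, ran from 1.37 to 13.7 at day 3 and from 2.3 to 51.1 at day 7 (log2 difference 1.53, limma adjusted p 0.236, and 0.103 without both replicates 5). Of 14 neutrophil markers only 6 were tested, since Ly6g, Cxcr2 and 6 others were too low. S100a8, an alarmin of neutrophil granules, had 6.77, 14.2, 8.41, 21 and 13.3 at day 3 and 0.423 to 45.9 at day 7 (log2 difference -0.59, limma adjusted p 0.688), and the groups overlapped. Csf3r, the receptor for the neutrophil growth factor G-CSF, fell by 1.44 without both replicates 5, as did 3 other neutrophil markers.

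Macrophage genes linked to lipid handling and scars had the second lowest median, and those of resident macrophages a median of -0.46. In the first list 8 of 12 tested members were lower at an unadjusted p under 0.05, none was called with all 11 samples, and 9 fell without both replicates 5 (medians -1.16 and -1.85). Spp1, osteopontin, a secreted matrix and cytokine-like protein, had FPKM of 394, 261, 629.6, 763 and 15.5 at day 3 and 7.55 to 493 at day 7 (median 25.6). Apart from replicates 5, the day 3 values were at least 261 and the day 7 values at most 28.6. It had a log2 difference of -2.79 (limma adjusted p 0.0913) and fell by 4.52 without both replicates 5 (limma adjusted p 1.92e-07). Gpnmb, a lysosomal glycoprotein, Trem2, a lipid-sensing receptor, and Apoe, which carries lipid, fell by 3.4, 2.74 and 2.16 without both replicates 5. Among 11 resident and alternatively activated macrophage genes 3 were lower and 1 higher at an unadjusted p under 0.05, and 6 fell without both replicates 5. Mrc1, the mannose receptor, had 7.83, 7.83, 8.92, 8.95 and 4.8 at day 3 and 2.0 to 16 at day 7 (median 2.66), and fell by 1.37 without both replicates 5. Pf4, a chemokine of platelets and resident macrophages, fell by 3.18. Retnla, a marker of alternatively activated macrophages, was higher in day 7 replicates 2, 3, 5 and 6 (17.8, 53.2, 4.89 and 72.2) than in any day 3 sample (1.02 to 4.3), with a log2 difference of 1.75 and a limma adjusted p of 0.151.

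**Figure D3:**
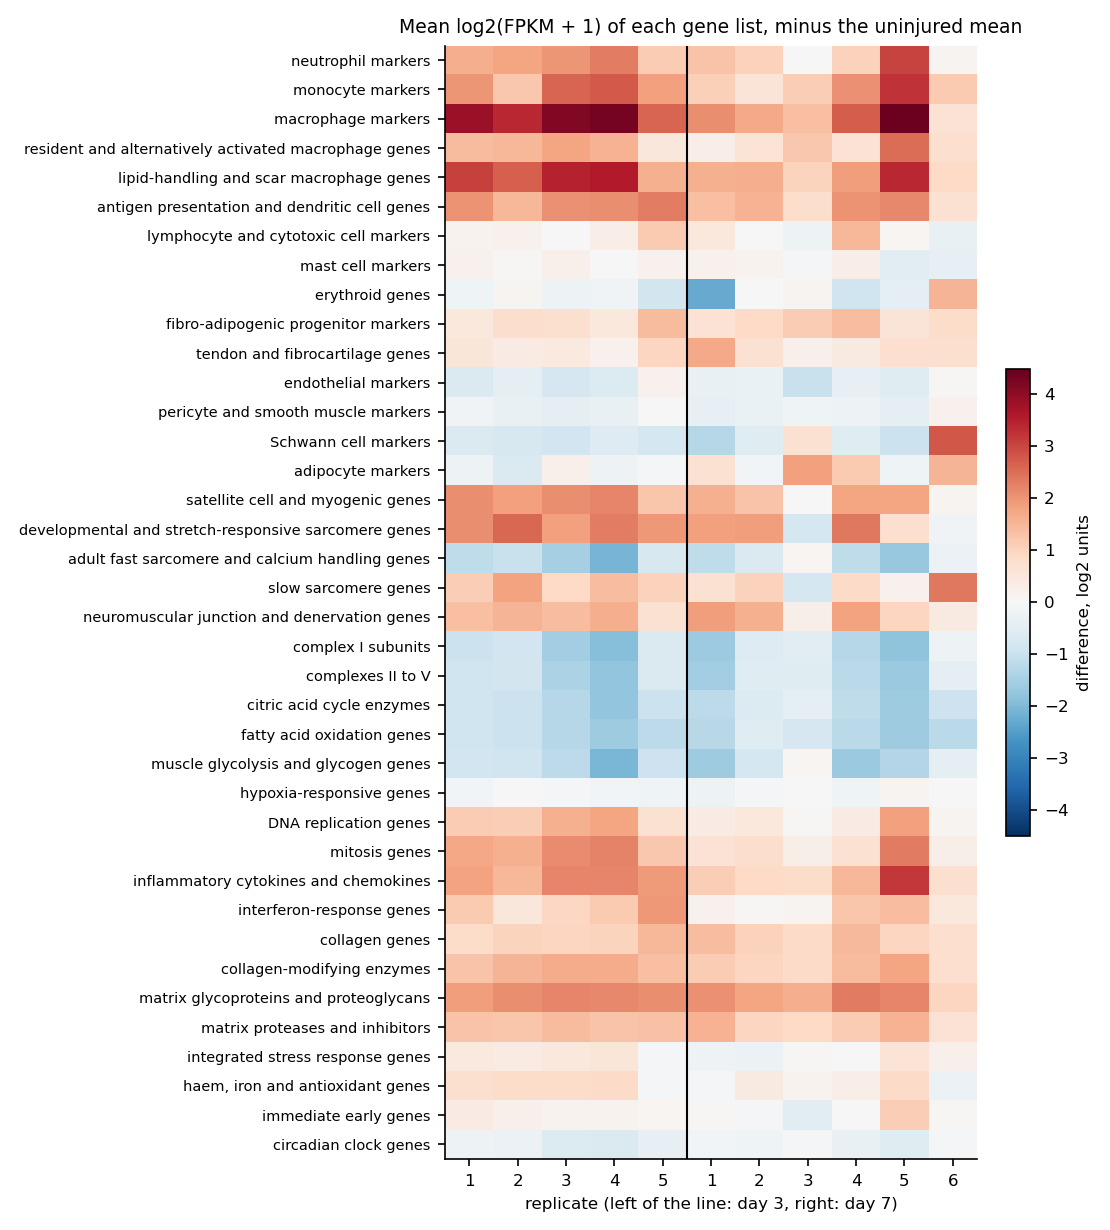
Mean log2(FPKM + 1) over the tested members of each of the 38 gene lists (rows) in each day 3 and day 7 library (columns, day 3 left of the line), minus the mean of the 5 uninjured samples, in log2 units. Macrophage markers were 4.15 to 5.85 at day 3 and 2.2 to 5.97 at day 7 before the uninjured mean of 1.54 was taken off, and the column of day 7 replicate 5 resembles day 3.

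Cytokine, interferon and antigen presentation genes had median log2 differences of -0.31, -0.54 and -0.65. Among 16 tested cytokines and chemokines 5 were lower at an unadjusted p under 0.05 and 8 fell without both replicates 5 (median -0.79), with none called with all 11 samples. Il6, Il1a, Cxcl2 and 6 others were too low to be tested. Il1b, interleukin 1 beta, had FPKM of 1.96, 0.93, 1.99, 1.01 and 0.616 at day 3 and was at 0 in day 7 replicates 2, 3 and 6 and at 9.18 in day 7 replicate 5. Ccl2 and Ccl7, chemokines that attract monocytes, fell by 2.29 and 2.58 without both replicates 5, and Cxcl10, an interferon-induced chemokine, by 1.03. Of 18 interferon-response genes 9 were lower at an unadjusted p under 0.05 with all 11 samples and 4 fell without both replicates 5. Isg15, a ubiquitin-like interferon product, had 16.6, 7.2, 13.3, 16.8 and 43 at day 3 and 3.59 to 25.2 at day 7, with the highest value of either day in day 3 replicate 5 (log2 difference -0.78, limma adjusted p 0.485). Oas1a, an antiviral sensor, fell by 1.26 without both replicates 5. Of 10 antigen presentation genes 5 were lower at an unadjusted p under 0.05 and 3 fell without both replicates 5. H2-Aa, an MHC class II chain, had 77, 43, 73.6, 66.7 and 143 at day 3 and 15.8 to 111 at day 7 (limma adjusted p 0.463), and its invariant chain Cd74 had a limma adjusted p of 0.0925 without both replicates 5. H2-DMa, which loads peptides, and Itgax, the dendritic cell integrin CD11c, fell by 1.24 and 1.18. None of the members of these 3 lists was called with all 11 samples. Of 18 lymphocyte genes only 4 were tested, and none had an unadjusted p under 0.05 or was called without both replicates 5. Trac, the T cell receptor alpha constant region, had 0.205, 0.327, 0.405, 0.704 and 1.76 at day 3 and 0.0476 to 3.07 at day 7.

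Cell division genes were lower at day 7 with few exceptions. Of 21 tested mitosis genes 19 were lower at an unadjusted p under 0.05 and 19 fell without both replicates 5 (medians -1.01 and -1.48). For 17 DNA replication genes the counts were 15 and 16 (medians -0.66 and -1.06). Neither list had a member called with all 11 samples. Cdk1, the kinase that starts mitosis, had FPKM of 5.14, 3.44, 5.71, 6.05 and 2.52 at day 3 and 0.553 to 8.56 at day 7 (median 1.44). Ccnb2, a mitotic cyclin, had 11.1, 8.71, 15.1, 16.8 and 5.31 at day 3 and 0.843 to 18.2 at day 7 (median 2.17; log2 difference -1.61, limma adjusted p 0.0682). In both, day 3 replicates 1 to 4 were above every day 7 sample except replicate 5, which was above all 5 day 3 samples. Cdc20, an activator of the anaphase-promoting complex, Birc5, survivin, and Mki67, the antigen Ki-67, fell by 2.25, 2.3 and 1.63 without both replicates 5. Mcm2 and Mcm6, subunits of the replicative helicase, fell by 1.02 and 1.65, Rrm2, which makes deoxynucleotides, by 2.04, and Pcna, the sliding clamp of DNA polymerase, by 1.06.

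Promoter windows of 3 cell division genes are shown because Cdkn3 and Oip5 were called and 19 of 21 mitosis genes fell without both replicates 5. Capitals mark TTTGAA, the core of the cell cycle homology region, and CCAAT, which NF-Y binds, on either strand. The windows are chr14:46760291-46760590 (+) for Cdkn3, chr2:119618456-119618755 (-) for Oip5 and chr9:70421505-70421804 (-) for Ccnb2, on GRCm38.p6 from RefSeq.

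Cdkn3: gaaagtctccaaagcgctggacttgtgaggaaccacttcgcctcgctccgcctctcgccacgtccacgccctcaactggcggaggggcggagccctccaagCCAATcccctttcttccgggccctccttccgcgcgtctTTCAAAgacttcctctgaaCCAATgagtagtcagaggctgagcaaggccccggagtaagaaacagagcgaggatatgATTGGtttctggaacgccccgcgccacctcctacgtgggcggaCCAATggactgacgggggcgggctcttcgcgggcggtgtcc
Oip5: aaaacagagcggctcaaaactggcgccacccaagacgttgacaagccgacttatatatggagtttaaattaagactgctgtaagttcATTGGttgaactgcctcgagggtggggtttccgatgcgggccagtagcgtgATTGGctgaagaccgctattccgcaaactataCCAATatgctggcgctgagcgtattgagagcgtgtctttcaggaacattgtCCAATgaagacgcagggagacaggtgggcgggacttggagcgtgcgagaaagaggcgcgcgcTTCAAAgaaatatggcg
Ccnb2: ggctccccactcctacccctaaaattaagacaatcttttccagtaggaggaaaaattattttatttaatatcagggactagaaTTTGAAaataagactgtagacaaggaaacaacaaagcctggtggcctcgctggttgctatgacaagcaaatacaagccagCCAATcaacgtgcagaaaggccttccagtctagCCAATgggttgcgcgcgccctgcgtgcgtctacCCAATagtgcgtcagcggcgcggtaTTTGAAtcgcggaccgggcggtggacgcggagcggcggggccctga

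Cdkn3 and Oip5 each held 4 copies of CCAAT and 1 of TTTGAA, and Ccnb2 held 3 and 2. Of the 18 windows found for 17 tested mitosis genes, 16 held CCAAT (88.9%) and 13 held TTTGAA (72.2%), against 37.4% and 17.9% of all 32851 windows. Among the 12881 windows of tested genes the shares were 37% and 12%. For the 15 windows of DNA replication genes the counts were 11 (73.3%) and 2 (13.3%). These are counts of letters in the windows and no test was made of them.

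Regulators of muscle formation and fusion had a median log2 difference of -0.58, with Myf6 as an exception in sign. Of 13 tested genes 7 were lower and 1 higher at an unadjusted p under 0.05, none was called with all 11 samples, and 8 fell and 1 rose without both replicates 5. Pax7, the transcription factor of satellite cells, had FPKM of 1.41, 0.782, 1.24, 1.35 and 0.978 at day 3 and 0.178 to 1.14 at day 7 (log2 difference -0.47, limma adjusted p 0.121). Myog, which drives terminal differentiation, had 197, 129.7, 203, 195 and 39.6 at day 3 and 1.5 to 121 at day 7 (median 61.3). Mymk, myomaker, a membrane protein needed for fusion, had 94.8, 71, 88.3, 89.9 and 23.6 at day 3 and 0.583 to 40.4 at day 7 (median 21.4; log2 difference -2.49, limma adjusted p 0.0715). Day 7 replicates 3 and 6 held the lowest values of Myog and Mymk, near the uninjured means of 1.78 and 0.242, and day 7 replicates 1, 2 and 4 lay between these and day 3 replicates 1 to 4. Without both replicates 5 Myog fell by 3.24, Mymk by 3.22, its partner Mymx by 3.46, Itga7, the laminin receptor of muscle, by 1.23, and Myod1, which commits cells to the muscle lineage, by 1.01. Without day 7 replicates 3 and 6 as well, the differences of Myog and Mymk were -1.42 and -1.78 (limma adjusted p 0.0126 and 0.00176). Myf6, the myogenic factor of differentiated fibres, had 61.4, 74.4, 83.1, 77.3 and 90.3 at day 3 and 266, 273 and 297 in day 7 replicates 1, 2 and 4, above every day 3 sample, and 86, 54.6 and 63.2 in replicates 3, 5 and 6, within or below the day 3 range. It rose by 1.14 without both replicates 5 (limma adjusted p 0.0402).

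The embryonic and perinatal myosin heavy chains followed the libraries in different ways. Of 10 developmental and stretch-responsive sarcomere genes 7 were lower at an unadjusted p under 0.05, none was called with all 11 samples, and 3 fell without both replicates 5. Myh3, the embryonic myosin heavy chain, had FPKM of 62.6, 57, 58, 69.6 and 28.8 at day 3 and 0.436 to 49.7 at day 7 (median 22.1; log2 difference -2.17, limma adjusted p 0.0945). Myh8, the perinatal myosin heavy chain, had 9.15, 7.58, 7.16, 10.3 and 45.5 at day 3, with the high value in replicate 5, and 31.6, 17.4, 0.409, 55.3, 1.81 and 0.784 in day 7 replicates 1 to 6. Day 7 replicates 1, 2 and 4 were above the first 4 day 3 samples, and the other 3 were below them. The log2 difference of Myh8 was -0.72 with all samples (limma adjusted p 0.692), 0.031 without both replicates 5 and 1.77 without day 7 replicates 3 and 6 as well (limma adjusted p 0.00405). Under the last setting the difference of Myh3 was -0.77 (limma adjusted p 0.173). Tnnt2, the troponin T of heart and embryonic muscle, had 29.5, 30.5, 22.6, 26.8 and 8.78 at day 3 and 0.265 to 12.7 at day 7, and fell by 2.46 without both replicates 5. Ankrd1, a stretch-induced sarcomere protein, fell by 1.76. Krt18, a keratin outside the lists, had the same split of day 7 libraries into high and low as Myh8, with 113, 91.8 and 381 in day 7 replicates 1, 2 and 4, 0.0408, 2.0 and 2.29 in replicates 3, 5 and 6, and 5.74 to 14.9 at day 3. Its log2 difference was 0.89 with all samples (limma adjusted p 0.736). It was 3.96 without both replicates 5 and day 7 replicates 3 and 6 (limma adjusted p 2.52e-05). That setting was added after the data were seen. It leaves out the 3 low day 7 libraries of Krt18 and Myh8, which enlarges both differences by construction, so its p-values are no support for a rise.

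Adult fast fibre genes and slow fibre genes had medians of opposite sign. Of 19 fast sarcomere and calcium handling genes 6 were higher at an unadjusted p under 0.05, none was called with all 11 samples, and 9 rose without both replicates 5 (medians 0.51 and 0.91). Myh4, the fastest adult myosin heavy chain, had FPKM of 1861, 1166, 1507, 535 and 2416 at day 3 and 1546 to 7129.6 at day 7 (median 1808), with the 2 highest values in day 7 replicates 3 and 6 and an uninjured mean of 5195. Its log2 difference was 1.02 (limma adjusted p 0.218), 1.4 without both replicates 5 (limma adjusted p 0.0315) and 0.62 without replicates 3 and 6 as well (limma adjusted p 0.387). Actn3, the actinin of fast fibres, had 954, 891, 1132, 645 and 1172 at day 3 and 934 to 2479.7 at day 7, and rose by 1.08 without both replicates 5. Ryr1, the calcium release channel, and Pvalb, the calcium buffer parvalbumin, rose by 0.85 and 1.77. Of 10 slow sarcomere genes 4 were lower at an unadjusted p under 0.05 and 1 fell without both replicates 5 (medians -0.66 and -0.6). Tnni1, the slow troponin I, had 33.6, 41.7, 36, 41.6 and 33.2 at day 3 and 0.538 to 46.6 at day 7. Myh7, the slow myosin heavy chain, was at or below 0.634 in 10 of the 11 samples and at 16.3 in day 7 replicate 6.

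The fetal and adult subunits of the acetylcholine receptor, which receives the nerve signal at the endplate, had differences of opposite sign. Chrng, the fetal gamma subunit, had FPKM of 19.1, 18.8, 19.3, 24.7 and 1.94 at day 3 and 0.183 to 9.61 at day 7 (median 8.11; log2 difference -1.54, limma adjusted p 0.138). Chrne, the adult epsilon subunit that replaces it, had 5.59, 9.04, 2.38, 1.92 and 15.9 at day 3 and 2.97 to 31.4 at day 7 (median 14.3; log2 difference 1.22, limma adjusted p 0.145). In each gene day 3 replicate 5 lay on the side of the other day. Without both replicates 5 Chrng fell by 2.31 and Chrne rose by 1.95 (limma adjusted p 0.00116 and 0.000156). Chrna1, the alpha subunit, had 38.2, 48.2, 50.2, 59 and 14.5 at day 3 and 6.21 to 70.5 at day 7 (limma adjusted p 0.754). Rapsn, which clusters the receptors, fell by 0.87 without both replicates 5. Over the 13 neuromuscular junction and denervation genes 3 were lower and 1 higher at an unadjusted p under 0.05, none was called with all 11 samples, and 3 fell and 1 rose without both replicates 5.

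The promoter windows of these 2 subunits are shown because they rose and fell in opposite directions without both replicates 5, with the E-box CAGCTG in capitals, a motif of MyoD family factors that reads the same on both strands. Chrng is at chr1:87205561-87205860 (+) and Chrne at chr11:70619145-70619444 (-), on GRCm38.p6 from RefSeq.

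Chrng: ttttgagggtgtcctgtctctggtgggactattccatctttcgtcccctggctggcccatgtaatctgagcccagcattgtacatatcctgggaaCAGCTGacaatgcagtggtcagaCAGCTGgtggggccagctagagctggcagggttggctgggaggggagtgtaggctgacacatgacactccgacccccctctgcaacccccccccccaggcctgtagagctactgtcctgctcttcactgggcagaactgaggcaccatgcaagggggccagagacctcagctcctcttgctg
Chrne: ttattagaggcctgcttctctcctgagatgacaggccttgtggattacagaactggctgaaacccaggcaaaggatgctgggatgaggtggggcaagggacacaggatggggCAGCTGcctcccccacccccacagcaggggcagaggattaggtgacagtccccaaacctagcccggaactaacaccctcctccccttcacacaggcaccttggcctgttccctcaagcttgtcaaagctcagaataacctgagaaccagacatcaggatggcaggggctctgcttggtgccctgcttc

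Chrng held 2 copies and Chrne 1, and 16.3% of all windows held at least 1 (15.8% of those of tested genes).

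**Figure D4:**
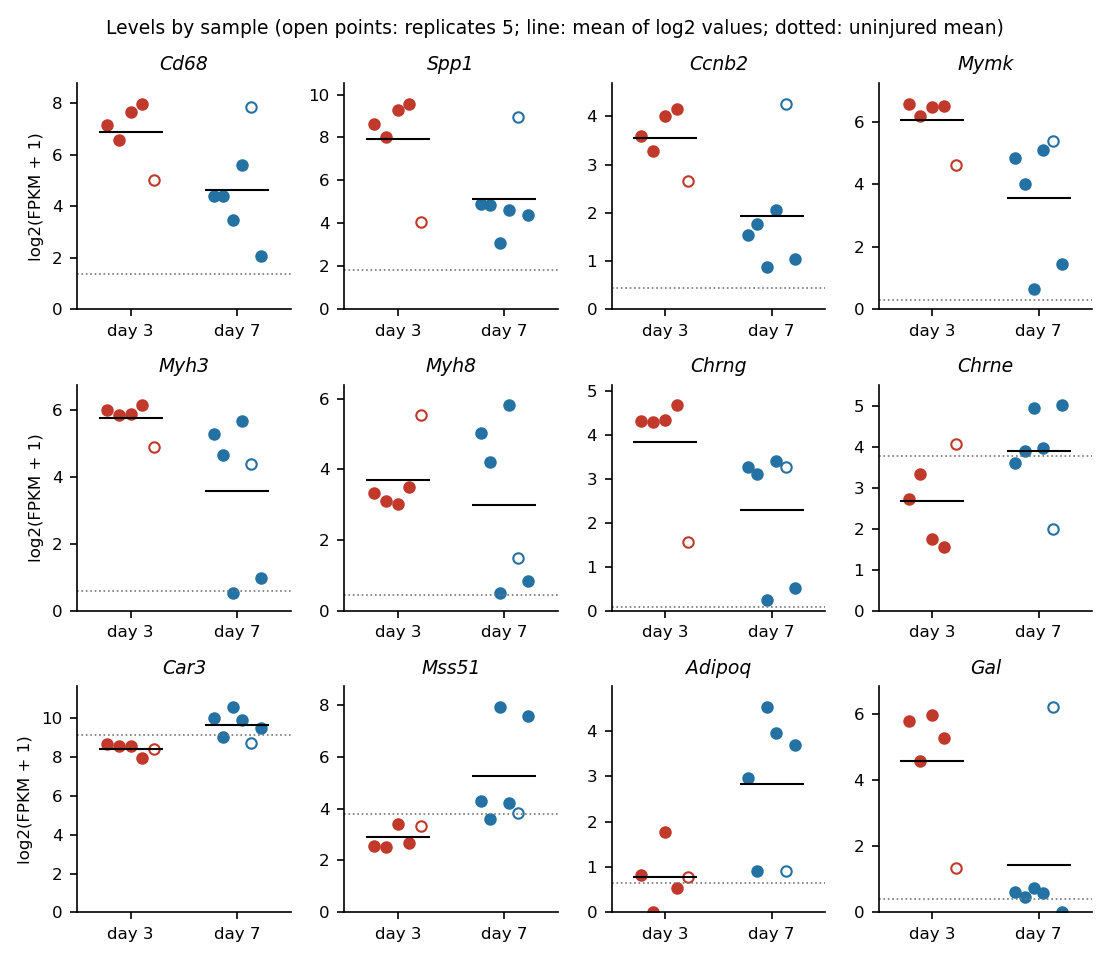
Levels of 12 genes as log2(FPKM + 1) (y axis) in each day 3 and day 7 sample (x axis), with replicates 5 as open points, the mean of the log2 values as a line and the uninjured mean as a dotted line. Cd68, Spp1, Ccnb2 and Gal are lower at day 7 in every filled point than in every filled day 3 point, Myh8 splits the day 7 points in 2 groups of 3, and Chrng and Chrne lie on opposite sides.

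Few metabolic genes passed any test. None of 36 complex I subunits, 15 citric acid cycle enzymes or 12 fatty acid oxidation genes had an unadjusted p under 0.05 with all 11 samples, and none was called without both replicates 5. Ndufa1, a complex I subunit, had FPKM of 278, 236, 142, 135 and 332 at day 3 and 135 to 583 at day 7, and Sdha, of complex II, had 50.5 to 105 and 63.4 to 152. Cs, citrate synthase, and Cpt2, which imports fatty acids into mitochondria, had log2 differences of 0.25 and -0.017 (limma adjusted p 0.615 and 0.976). Of 33 subunits of complexes II to V, Cox6a1, the ubiquitous form of a cytochrome oxidase subunit, was the 1 member with an unadjusted p under 0.05. It had 196, 178, 220.2, 237 and 165 at day 3 and 70.7 to 232 at day 7, and fell by 1.08 without both replicates 5. The 14 glycolysis and glycogen genes had 15 tested entries, since Aldoa is annotated under 2 identifiers. Among them Pygm, muscle glycogen phosphorylase, alone had an unadjusted p under 0.05 (log2 difference 0.65, limma adjusted p 0.315). None was called without both replicates 5. Pfkm, muscle phosphofructokinase, had 247 to 655 at day 3 and 321 to 1159 at day 7. Of 14 hypoxia-responsive genes 1 was higher and 1 lower at an unadjusted p under 0.05, and none was called with all 11 samples (median -0.088). Without both replicates 5, 1 rose and 2 fell (median -0.24), against 3.53% and 11.9% of all genes tested. The fallers were Pfkp and Pfkl, the phosphofructokinases of platelets and liver, which fell by 0.47 and 0.7 (limma adjusted p 0.014 and 0.00141). Vegfa, the endothelial growth factor, had 16.4, 15.3, 9.02, 6.51 and 35.1 at day 3 and 10.8 to 51.1 at day 7, and rose by 1.21 without both replicates 5 (limma adjusted p 0.0231).

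Collagen genes had a median log2 difference near that of all genes, and the enzymes that modify collagen one of -0.32. Of 32 tested collagen genes 1 was higher and 1 lower at an unadjusted p under 0.05, and 4 rose and 1 fell without both replicates 5 (medians -0.03 and 0.051). Col1a1, the alpha 1 chain of type I collagen, had FPKM of 207, 272, 294, 311 and 397 at day 3 and 110.1 to 583 at day 7 (log2 difference -0.11, limma adjusted p 0.923), against an uninjured mean of 23.7. Col11a1, a minor fibrillar chain, had 0.218, 0.216, 0.167, 0.155 and 1.26 at day 3 and 0.201 to 2.51 at day 7. Col11a2, its partner chain, rose by 1.2 without both replicates 5 and Col8a1, of the type VIII network, fell by 0.88. Of 17 collagen-modifying enzymes 6 were lower at an unadjusted p under 0.05 and 5 fell without both replicates 5. Serpinh1, the collagen chaperone HSP47, had 179, 192, 245, 256 and 181 at day 3 and 80.8 to 229.6 at day 7 and fell by 1.06, and Loxl3, a cross-linking enzyme, fell by 1.35. P4ha1, a prolyl hydroxylase, had a log2 difference of -0.18 (limma adjusted p 0.57).

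Of 15 matrix glycoproteins and proteoglycans 4 were lower at an unadjusted p under 0.05, and 5 fell and 1 rose without both replicates 5. Tnc, tenascin C, a matrix protein of healing tissue, had FPKM of 14, 22.6, 15.2, 13.8 and 3.57 at day 3 and 1.27 to 10.6 at day 7, and fell by 1.71. Tgfbi, a matrix protein induced by TGF-beta, fell by 1.74, and Fn1, fibronectin, had 20.7, 27.4, 30.4, 30.8 and 45.2 at day 3 and 20.1 to 52 at day 7 (limma adjusted p 0.774). Of 16 matrix proteases and inhibitors 4 were lower and 1 higher at an unadjusted p under 0.05, and 5 fell and 1 rose without both replicates 5. Timp1, an inhibitor of metalloproteases, had 59.8, 100.2, 85.7, 87.8 and 41.6 at day 3 and 14.4 to 105 at day 7 (median 21.5). It fell by 1.98 without both replicates 5. Mmp2, a gelatinase, had higher values in day 7 replicates 1 to 4 (83.2, 42.6, 41.8 and 86.3) than in day 3 replicates 1 to 4 (23 to 24.9). Day 3 replicate 5 was at 58.8, day 7 replicate 5 at 29.9 and day 7 replicate 6 at 14.5, below every day 3 sample, and the limma adjusted p was 0.471. None of the 80 tested members of the 4 matrix lists was called with all 11 samples.

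Adipocyte markers were the list with the highest share of members higher at an unadjusted p under 0.05 among the 38. Of 10 tested genes 6 were higher at an unadjusted p under 0.05, none was called with all 11 samples, and 5 rose without both replicates 5 (medians 0.88 and 1.06). The list did not move as a whole, since log2 differences with all 11 samples ran from -0.02 to 2.72, with 1 member lower on average. Adipoq, the hormone adiponectin, had FPKM of 0.763, 0, 2.39, 0.445 and 0.715 at day 3 and 6.82, 0.871, 22.1, 14.4, 0.873 and 11.9 in day 7 replicates 1 to 6 (log2 difference 2.05, limma adjusted p 0.0831). Replicates 1, 3, 4 and 6 were above every day 3 sample, and replicates 2 and 5 inside the day 3 range. Cfd, the complement factor adipsin of fat cells, had 8.16, 0.332, 37.9, 10.8 and 8.97 at day 3 and 9.25 to 309 at day 7 (median 89.9) and rose by 3.26 without both replicates 5 (limma adjusted p 0.0165). Without day 7 replicates 3 and 6 as well, the limma adjusted p was 0.0765 for Adipoq and 0.179 for Cfd. Scd1, which desaturates fatty acids, had 2.66, 2.19, 3.38, 2.97 and 5.66 at day 3 and 2.64 to 48.8 at day 7 (median 27.2), and rose by 2.72 without both replicates 5 (limma adjusted p 5.51e-06). Thrsp, a regulator of fat synthesis, had 6.44, 4.66, 3.9, 3.29 and 42 at day 3, with the high value in replicate 5, and a day 7 median of 32.6, and rose by 2.52. Dlk1, a ligand found on fat precursors and regenerating muscle, showed the same pattern, with 0.432, 0.0973, 0.348, 0.466 and 20.5 at day 3 and 0.274 to 15.3 at day 7.

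Nerve, endothelial and erythroid markers had no member past the tests, while some stromal markers passed once both replicates 5 were left out. None of the members of the lists in this group was called with all 11 samples. Of 10 Schwann cell markers none had an unadjusted p under 0.05 or was called without both replicates 5. None of 12 endothelial markers or 5 erythroid genes had an unadjusted p under 0.05 or was called without both replicates 5. Pecam1, the endothelial adhesion protein CD31, had FPKM of 12.2, 17.2, 13.2, 15.8 and 28 at day 3 and 8.79 to 20.8 at day 7, and Hba-a1, an alpha globin, had 81.3 to 171 and 20.4 to 460.2. Of 5 mast cell markers 1 was lower at an unadjusted p under 0.05 and 0 fell without both replicates 5, and Cpa3, a mast cell protease, had a log2 difference of 0.072. Of 11 pericyte and smooth muscle markers 1 was higher and 2 lower at an unadjusted p under 0.05, none was called with all 11 samples, and 3 rose and 1 fell without both replicates 5. Acta2, smooth muscle actin, had 175, 169, 159, 157 and 103 at day 3 and 43.3 to 109.6 at day 7, with only day 7 replicate 5 above the lowest day 3 sample (log2 difference -1.11, limma adjusted p 0.067). It fell by 1.37 without both replicates 5, while the pericyte genes Rgs5 and Abcc9 rose by 0.69 and 0.72. Cspg4, the pericyte proteoglycan NG2, was lower in all 6 day 7 samples (1.12 to 1.78) than in the day 3 samples (1.89 to 2.77), with a log2 difference of -0.34 and a limma adjusted p of 0.205. Of 12 fibro-adipogenic progenitor markers 7 were higher and 5 lower on average, with log2 differences from -0.42 to 0.72 (median 0.084). At an unadjusted p under 0.05, 1 was higher. Without both replicates 5, 3 rose and 0 fell, among them Pi16, of adventitial fibroblasts, and the proteoglycan Dcn (1.14 and 0.86). Pdgfra, the receptor that defines these cells, had 1.8, 2.37, 2.62, 2.65 and 2.87 at day 3 and 1.68 to 3.62 at day 7 (limma adjusted p 0.975). Of 10 tendon genes 2 were lower at an unadjusted p under 0.05, as were 11.4% of all genes tested. Prg4, the lubricin of joints, was the 1 member called without both replicates 5, where it fell by 1.49, and 11.9% of all genes tested fell. Tnmd, tenomodulin, and Scx, the tendon transcription factor, had log2 differences of 0.81 and -0.87 (limma adjusted p 0.536 and 0.305).

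Stress, iron and clock genes completed the lists, with no member called with all 11 samples. Of 13 integrated stress response genes 3 were lower and 1 higher at an unadjusted p under 0.05, and 4 fell and 1 rose without both replicates 5. The fallers included Psat1 and Phgdh, enzymes of serine synthesis, with Psat1 at 7.33, 6.58, 9.26, 11.4 and 2.51 at day 3 and 0.83 to 10.3 at day 7, while Atf4, the factor that drives this response, had a log2 difference of 0.028 (limma adjusted p 0.969). Psat1 and Phgdh fell by 2.08 and 1.65 without both replicates 5. Of 9 haem, iron and antioxidant genes 2 were lower at an unadjusted p under 0.05, and 2 fell and 1 rose without both replicates 5. Hmox1, which degrades haem, had 95, 133, 154, 151 and 15.5 at day 3 and 7.1 to 261 at day 7 (median 18.4), and Hmox1 and the ferritin light chain Ftl1 fell by 3.02 and 2.36 without both replicates 5. The riser was Tfrc, the transferrin receptor that takes up iron, with 9.24, 12.8, 6.97, 5.04 and 25.4 at day 3 and 7.21 to 36.1 at day 7 (log2 difference 1.26 and limma adjusted p 0.00826 without both replicates 5). Of 15 immediate early genes 2 were lower at an unadjusted p under 0.05, as were 11.4% of all genes tested. Without both replicates 5, 2 fell, Ier3, a stress-induced survival gene, among them (by 1.18), and 11.9% of all genes tested fell. Fos had 7.82, 5.48, 6.2, 5.9 and 5.85 at day 3 and 2.62 to 25 at day 7. Among 14 clock genes 5 were higher and 2 lower at an unadjusted p under 0.05, and 5 rose and 2 fell without both replicates 5. Arntl, the core activator BMAL1, had 0.44, 0.431, 0.458, 0.648 and 0.75 at day 3 and 0.389 to 1.22 at day 7 (limma adjusted p 0.251). Per2, a repressor of the clock, and Tef, an output factor, rose by 1.05 and 0.74 without both replicates 5, and Nr1d1, the repressor REV-ERB alpha, fell by 0.78. The hour at which muscles were taken is not given in the sources used here.

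**Figure D5:**
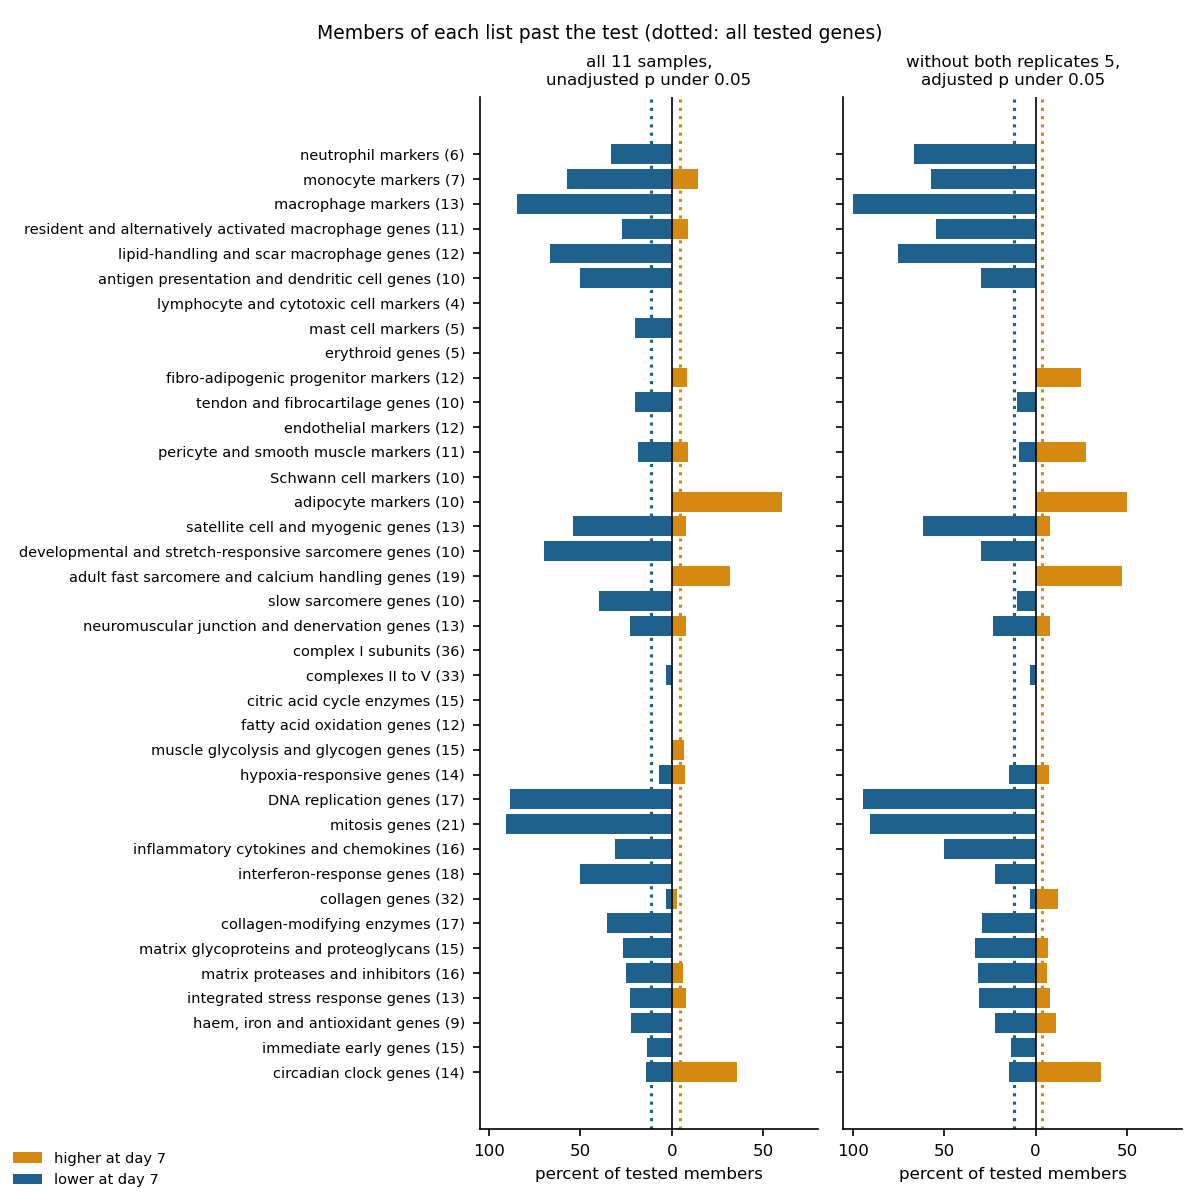
Share of the tested members of each gene list (rows, number tested in brackets) that were higher (right) or lower (left) at day 7, in percent on the x axis, with all 11 samples at an unadjusted p under 0.05 (left panel) and without both replicates 5 at an adjusted p under 0.05 (right panel). Dotted lines mark the shares over all tested genes, 4.37% and 11.4% on the left and 3.53% and 11.9% on the right, and macrophage, DNA replication and mitosis lists reach farthest to the lower side.

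Some genes outside the lists also separated the days once both replicates 5 were left out. Gal, the neuropeptide galanin, had FPKM of 54, 22.7, 60.6, 37.2 and 1.52 at day 3 and 0 to 73 at day 7 (median 0.51), where the highest value was that of replicate 5 and the other 5 were at or below 0.66. Its log2 difference was -3.14 (0.8 SE, limma adjusted p 0.0732) and it fell by 4.91 without both replicates 5 (limma adjusted p 3.53e-11). The 2 libraries left out are those that went against the fall, so the second p-value is no support for it. R3hdml, a secreted protease inhibitor-like protein, had 11.2, 10.5, 12.1, 16 and 0.644 at day 3 and 0 to 6.04 at day 7 (median 0.73), and fell by 3.15. Tmsb10, a thymosin that binds actin monomers, was abundant, with 582, 505, 676, 743 and 269.9 at day 3 and 56.6 to 630.0 at day 7, and fell by 2.66. In all 3 genes day 3 replicate 5 was the lowest sample of its day and day 7 replicate 5 the highest of its day. Marker lists moved with the libraries that stood apart. The mean log2(FPKM + 1) over the 13 macrophage markers was 4.15 in day 3 replicate 5 against 4.92 to 5.85 in the other day 3 samples, and 5.97 in day 7 replicate 5 against 2.2 to 4.28 in the other day 7 samples. For the 21 mitosis genes it was 1.6 against 1.98 to 2.6, and 2.72 against 0.63 to 1.17. Schwann cell markers stood at 2.66 and 4.78 in day 7 replicates 3 and 6 and at 0.72 to 1.43 in the other 4. Satellite cell and myogenic genes stood at 2.0 and 2.1 in those 2 libraries and at 3.28 to 3.76 in the other 4. The part of these libraries' cell content in each result was not tested. Of the 127 genes named, 38 overlap another annotated gene, often a small RNA or an antisense transcript, and among the overlaps with coding genes are Pfkm with Senp1, Cxcl10 with Art3, Cdc20 with Elovl1, Prg4 with Tpr, Scx with Bop1, Timp1 with Syn1 and Nr1d1 with Thra. Their reads may be shared.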

How the data were processed

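Poly-A RNA was sequenced in non-directional libraries. According to the methods and the submitters' processing notes, the authors aligned reads with HISAT2 2.0.5, counted them per gene with featureCounts 1.5.0-p3 and deposited FPKM values. Their genome build is not given in the sources used here, and the gene positions in the table match GRCm38. FPKM times gene length gave whole reads (within 0.05) with 1 denominator per library, and that denominator was 1.14 to 1.48 times the library's read total at day 3 and 0.810 to 1.44 times at day 7. Values were tested as log2(FPKM + 1) with limma 3.58.1 (R 4.3.3) in 1 fit of all 27 samples with a mean per group and a mean-dependent prior, using Benjamini-Hochberg adjustment over 14630 genes and a threshold of 0.05. On simulated data with 200 changed genes this recovered 78% of 2-fold and 98% of 4-fold changes, with 9 false calls. The simulated noise was independent between genes, with 1 spread per gene for all groups. Only genes with a mean log2(FPKM + 1) above 1 were changed. No simulated library stood apart from its day as several did here, so these shares do not give the power of this comparison. Python 3.11.15, pandas 2.3.3 and numpy 2.4.6 did the rest. The text names the called genes, the first tested member of each list and others chosen after their values were seen, and a few genes, among them 1 such first member, are not reported here. The members and lists were chosen with earlier results of these data known. Alternatives, 24 planned and 4 added after the data were seen, are described in the closing section. Gene positions came from the deposited table and promoter sequences from RefSeq.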

Additional observations from a re-analysis of the deposited data

Results flagged for a closer look

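Gaps of 1 library from the rest of its day, divided by the range of log2(FPKM + 1) within that day, were compared with Dixon's 95% critical value (0.710 for the 5 day 3 samples and 0.625 for the 6 day 7 samples), which chance exceeds in about 1 in 20 groups. Among the 127 genes named, 57 such gaps were found, and 50 of them concerned the replicates numbered 5. Most of these genes were chosen after their values were seen, and many were called only without both replicates 5. Such genes tend to show those libraries as outlying. The counts therefore follow in part from the choice of genes and cannot be set against the rate of 1 in 20.

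Day 7 replicate 5 was the highest of its day for Mrc1 (0.794), Spp1 (0.694), Mcm2 (0.664), Cdk1 (0.706), Il1b (0.818), Smim6 (0.681), Cdkn3 (0.725), Gm19817 (0.834), Oip5 (0.626), Gal (0.882), Chil3 (0.886), Ccr2 (0.783) and Pf4 (0.717). It was also the highest for Ccl2 (0.776), Ccl7 (0.758), Mcm6 (0.727), Pcna (0.787), Ccnb2 (0.654), Cdc20 (0.659), Birc5 (0.692), Loxl3 (0.65), Tgfbi (0.664), Timp1 (0.696), Psat1 (0.769), Ier3 (0.81), Pfkp (0.705) and Pfkl (0.695), and the lowest for the clock genes Arntl (0.675) and Tef (0.64). Myeloid, cytokine and cell division genes made up most of this set.

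Day 3 replicate 5 was the lowest of its day for Mrc1 (0.779), Spp1 (0.721), Myh3 (0.773), Hmox1 (0.785), Smim6 (0.92), R3hdml (0.834), Pf4 (0.856), Myod1 (0.746), Myog (0.723), Mymk (0.79), Tnnt2 (0.754), Chrng (0.879), Acta2 (0.799) and Tnc (0.718). It was the highest for Tnmd (0.788), Col11a1 (0.921), Mmp2 (0.918), Thrsp (0.761), Dlk1 (0.903), Myh8 (0.81) and Col11a2 (0.79). The genes of new fibres stood on opposite sides here, with Myh3 low and Myh8 high.

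The other 7 gaps were the low values of Ryr1 in day 3 replicate 4 (0.758), of Hp in day 7 replicate 2 (0.67) and of Pecam1 (0.745), Mt3 (0.667) and Cspg4 (0.855) in day 7 replicate 3, and the high values of Col11a1 in day 7 replicate 1 (0.628) and Myh7 in day 7 replicate 6 (0.833).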

How the results depend on the processing

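The count of called genes depended on the libraries more than on the scale. It was 7 as reported, 1 with a pseudocount of 0.1, 17 with no FPKM minimum, 4 with a minimum of 1, 12 after quantile normalization, 3 in TPM, 1 with the 11 samples alone, 1 with voom on recovered reads, 1892 with sample quality weights and 2265 without both replicates 5, and from 2 to 1792 when 1 library was left out. Leaving out day 3 replicate 5 gave 730 and day 7 replicate 5 gave 1792, against 2 to 21 for each other library. Without day 7 replicates 3 and 6 it was 1, and without those and both replicates 5 it was 1678, of which 1416 were among the 2265. Called list members numbered 0 as reported, 1 after quantile normalization, 149 with sample weights, 168 without both replicates 5, 136 without all 4 libraries and 0 to 147 with 1 library left out. Deviations of same-numbered samples from their day means had correlations of -0.161, 0.258, -0.193, 0.299 and -0.521. No pairing by number was seen in them. The libraries that stood apart enter these values, so they do not show that same-numbered samples were unrelated. A replicate block by number or by letter called 3 genes, 1 higher and 2 lower.

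Of 3549 values recomputed for the 127 named genes, 3033 kept direction and call, 375 became called, 67 lost the call and 74 changed sign. The cause was not tested. Signs changed without day 7 replicates 3 and 6, and without all 4 libraries, for S100a8 (0.498, 0.0807), H2-Aa (0.0291, 0.181), Pdgfra (0.0825, 0.0105), Myh7 (-0.236, -0.18), Chrna1 (0.457, 0.359), Atf4 (-0.254, -0.33), Myh8 (0.432, 1.77) and Col1a1 (0.32, 0.53), for Ndufa1 (-0.0535) and Pfkm (-0.106) in the first setting and for Cpt2 (0.00647) in the second. Without both replicates 5 the signs of Cpt2 (0.115) and Myh8 (0.0311) changed. Sample weights turned Cpt2 (0.036), Atf4 (-0.0799), Myh8 (0.565) and Col1a1 (0.211), quantile normalization turned Pdgfra (0.0195), Cpt2 (0.0421) and Col1a1 (0.000105), and TPM turned Trac (-0.0161), Pecam1 (-0.0871) and Atf4 (-0.0704). Pseudocounts of 0.1 and 0.5 turned Trac (-0.173, -0.0211), voom turned Trac (-0.261), Pecam1 (-0.00754) and Myh7 (-1.06), and scaling by each library's own total turned Pecam1 (-0.0976) and Atf4 (-0.0848). The replicate blocks by number and letter turned Pdgfra (0.0503, 0.0397), Atf4 (-0.0749, -0.0579) and Col1a1 (0.119, 0.0895). With 1 library left out, values that changed sign ran from -0.254 to 0.209 for Trac, -0.014 to 0.16 for Cpa3, -0.605 to 0.281 for Hba-a1, -0.107 to 0.0497 for Pdgfra, -0.0968 to 0.187 for Pecam1, -0.116 to 0.702 for Myh7, -0.0975 to 0.0877 for Cpt2, -0.0869 to 0.164 for Atf4, -0.544 to 0.0252 for Fos and -0.338 to 0.141 for Col1a1. Depth limited the genes with few reads, such as Gm37565 (at most 30 reads in a library) and Sprr1a (at most 139).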
